A study of Mus musculus with 9 samples.

Results

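The genes described here encode the coreceptor chains of T cells: Cd8a for CD8α, Cd8b1 for CD8β and Cd4 for CD4. They were chosen by name, as 3 of the 22180 genes with an array row of a single gene symbol, and each has 1 such row on the Affymetrix Mouse Gene 2.0 ST array. RNA came from γδ T cells of C57BL/6 mice, with 3 biological replicates for each of 3 subsets and 9 arrays in all. IELs are the intraepithelial lymphocytes of the gut, taken from the small intestine per their descriptions, and both other subsets, Naive-like and Type-1, were taken from axillary, brachial and inguinal lymph nodes. No treatment or genetic change is named for any subset, and the sources used here do not give age, sex or whether a replicate is 1 mouse or a pool. The p-values thus reflect only the spread among these arrays, which may be partly technical. Antibodies to CD8 and to CD4 are among those listed for staining. The sort gates are not given, so whether either protein was used to choose the cells is unknown, and a gate on one would itself set the level of its gene.

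CD8 and CD4 sit beside the T-cell receptor and bind the invariant parts of MHC molecules, CD8 those of class I and CD4 those of class II. The tails of CD8α and CD4 carry the kinase Lck to the receptor. CD8 occurs as an αβ heterodimer, the form of conventional cytotoxic T cells, and as an αα homodimer, which is typical of intestinal intraepithelial lymphocytes and binds the thymus leukaemia antigen, a class I-like protein of gut epithelium. CD8β reaches the cell surface only in company with CD8α. Most γδ T cells of lymph nodes are described as lacking both coreceptors at the surface.

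All values are RMA values on the log2 scale, differences stand with their standard error (±), and each subset has n = 3 arrays. A gene passed if its adjusted p was under 0.05 in the limma fit across all 22180 genes (Benjamini-Hochberg). Of all genes, 5.19% passed between IELs and Naive-like cells, 0.284% between Type-1 and Naive-like cells, and 5.14% between IELs and Type-1 cells. The arrays of the subsets did not overlap in 20.1%, 11.4% and 19.8% of all genes in that order. Subset and tissue differ together in both comparisons with IELs. All 3 comparisons come from the same 9 arrays and share subsets, so they are not independent. The table gives no detection calls, and RMA compresses the differences of dim genes.

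Cd8a was high in IELs and lower in both lymph node subsets. Its value was 9.31, 9.96 and 9.57 in IEL replicates 1, 2 and 3. In Naive-like cells it was 6.30, 5.40 and 6.95, and in Type-1 cells 6.63, 4.98 and 6.37. Every IEL array lay above every lymph node array, while the arrays of the lymph node subsets overlapped throughout. The excess of IELs over Naive-like cells was 3.40 ± 0.44, a 10.5-fold difference with a 95% interval of 5.41 to 20.5 (limma adjusted p = 4.39e-04). Against Type-1 cells it was higher by 3.62 ± 0.44, or 12.3-fold with an interval of 6.30 to 23.8 (limma adjusted p = 3.21e-04). These are bulk samples, in which more cells of a type and more RNA per cell cannot be told apart. Type-1 and Naive-like cells differed in Cd8a by -0.22 ± 0.44, with an interval from -1.18 to 0.74 (limma adjusted p = 0.969). Replicate 2 was the lowest array in each of these subsets.

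Cd8b1 went the other way between IELs and Naive-like cells, being highest in Naive-like cells. There it was 10.33, 10.20 and 10.50 in replicates 1, 2 and 3, in Type-1 cells 8.14, 8.05 and 8.43, and in IELs 8.88, 7.46 and 6.27. The Naive-like arrays lay close together and above all the others. The IEL arrays were spread widely, and IEL replicate 1 lay above all Type-1 arrays while replicates 2 and 3 lay below them. Cd8b1 was lower in IELs than in Naive-like cells by a log2 difference of -2.81 ± 0.47, a 7.02-fold difference with an interval of 3.44 to 14.3 (limma adjusted p = 0.0031). The call does not extend to a minimum log2 difference of 1, where the adjusted p was 0.0913 (limma treat).

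**Figure D1:**
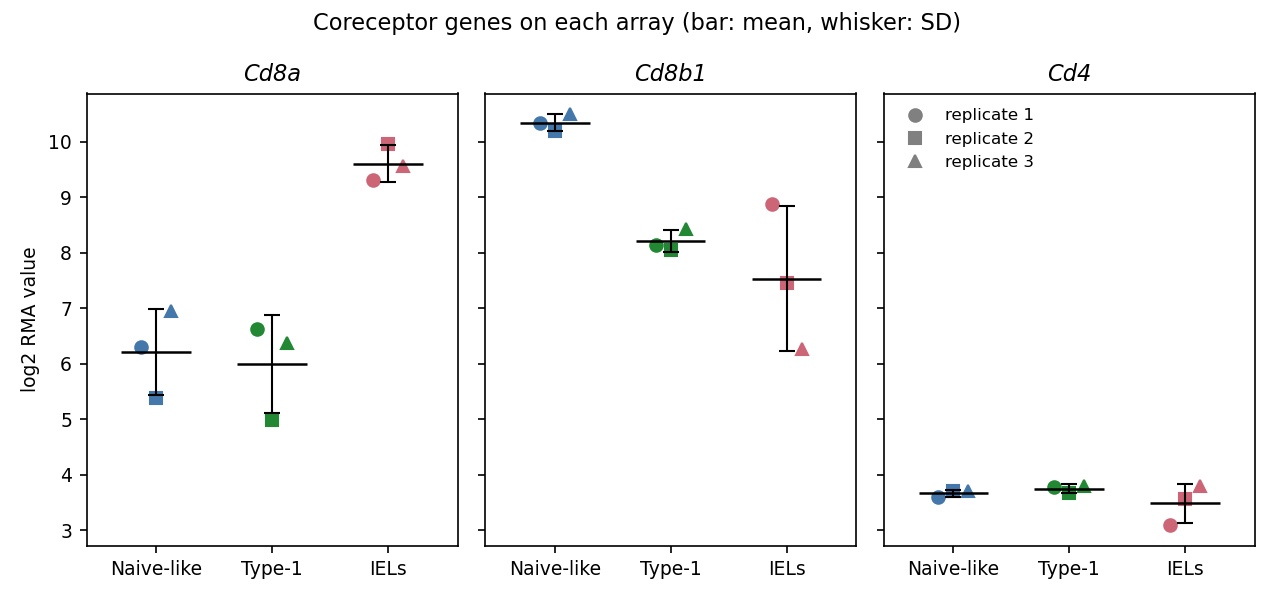
Log2 RMA value (y axis) of Cd8a, Cd8b1 and Cd4 on each of the 9 arrays by subset (x axis), with symbols for the replicates, a bar for the mean and a whisker for the SD. The IEL arrays sit at 9.31 or above for Cd8a, the Naive-like arrays at 10.20 or above for Cd8b1, and all arrays between 3.10 and 3.81 for Cd4.

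Within the lymph node, the arrays of the subsets did not overlap in Cd8b1, as in 11.4% of all genes, while they overlapped in Cd8a. The Type-1 mean was 8.21 ± 0.20 (SD, n = 3) against 10.35 ± 0.15 in Naive-like cells, and the highest Type-1 array stood at 8.43 against 10.20 for the lowest Naive-like array. The difference was -2.14 ± 0.47, the 10th most negative of 22180 genes, with an interval from -3.17 to -1.11. It did not pass in the fit over all 9 arrays (limma unadjusted p = 6.92e-04, adjusted p = 0.141). That fit takes its spread from all subsets, and the SD of Cd8b1 was 1.30 in IELs. In a fit of only the 2 lymph node subsets the difference was the same, the standard error 0.20 and the adjusted p 0.0022. It also passed with array weights (adjusted p = 0.0476), without IEL replicate 1 (0.0082) and without IEL replicate 3 (0.0175). Under the other 18 alternatives run it did not pass. Its limma adjusted p was 0.5106 without Naive-like replicate 3 and 0.2434 without replicate 3 of every subset.

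IELs and Type-1 cells could not be separated by Cd8b1, at -0.67 ± 0.47 with an interval from -1.70 to 0.36 (limma adjusted p = 0.544). This value depended on single IEL arrays. Without IEL replicate 1, the array of highest Cd8b1 in its subset and of lowest weight among the 9, the difference was -1.34 ± 0.31 and passed (adjusted p = 0.0312), and without IEL replicate 3 it was -0.04 ± 0.35. Replicate 3 in each subset has a number code in its description that the other arrays lack. In the 6 arrays without it the difference was 0.07 ± 0.42. Against Naive-like cells, the same 6 arrays gave an IEL difference of 3.79 ± 0.55 for Cd8a and -2.10 ± 0.42 for Cd8b1 (limma adjusted p = 0.0116 and 0.0480).

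**Figure D2:**
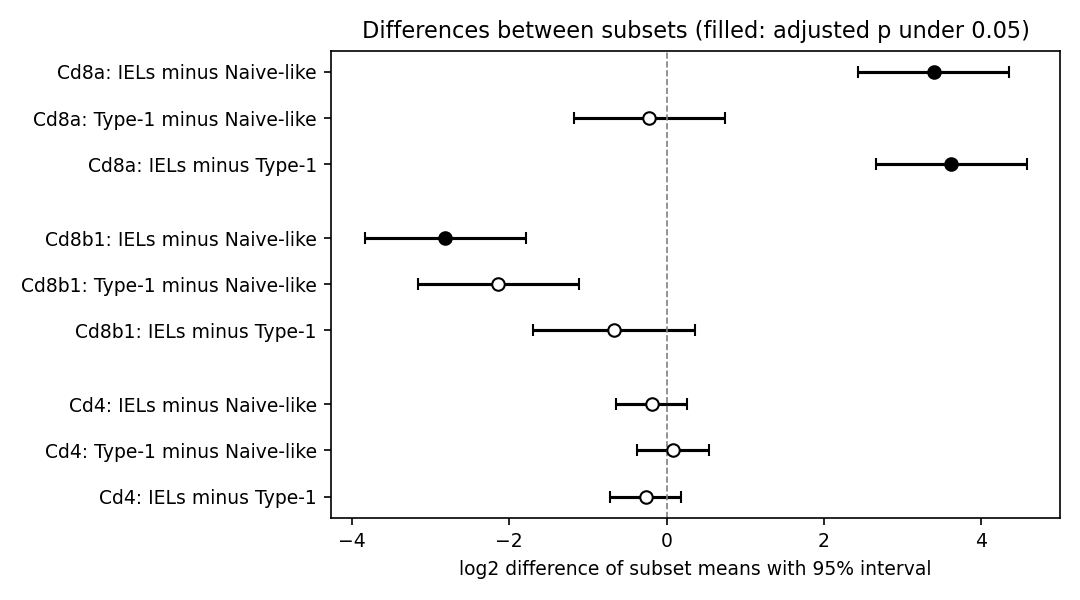
Log2 difference of subset means (x axis) with its 95% interval for each coreceptor gene and comparison (y axis), filled where the adjusted p was under 0.05. Cd8a lies above 0 in both comparisons with IELs, Cd8b1 lies below 0 against Naive-like cells, and all intervals of Cd4 include 0.

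Cd4 was low on every array and did not differ between subsets beyond the spread of the arrays. It was 3.10, 3.56 and 3.80 in IEL replicates 1, 2 and 3, 3.60, 3.70 and 3.72 in Naive-like cells and 3.79, 3.67 and 3.81 in Type-1 cells. The subsets overlapped in each comparison, and the lowest value was that of IEL replicate 1. The difference from Naive-like cells was -0.19 ± 0.21 in IELs and 0.08 ± 0.21 in Type-1 cells, and that between IELs and Type-1 cells was -0.27 ± 0.21 (limma adjusted p = 0.8199, 0.9774 and 0.5875). The intervals ran from -0.64 to 0.26, from -0.37 to 0.53 and from -0.72 to 0.18, so a change of 1 in the log2 values lay outside each of them. As RMA compresses the differences of dim genes, these intervals limit the change in the array values and not that in Cd4 RNA. The mean of the Cd4 row stood at the 28.0th percentile of all genes, below the median of 4.52, whereas those of Cd8a and Cd8b1 stood at the 90.0th and 97.6th. Probes differ in brightness, so these positions describe rows of the table and do not rank the RNAs of the 3 genes.

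In all, 1 of the 3 genes rose and 1 fell in IELs against Naive-like cells, beside 3.57% of all genes that rose and 1.62% that fell. In IELs against Type-1 cells 1 rose and none fell, beside 3.73% and 1.41%. In Type-1 against Naive-like cells none passed, beside 0.212% that rose and 0.0721% that fell. At an unadjusted limma p under 0.05 there was 1, Cd8b1, which was lower, beside 6.48% of all genes in either direction. Over the 9 arrays the Pearson correlation was -0.538 between Cd8a and Cd8b1, -0.415 between Cd8a and Cd4 and -0.144 between Cd8b1 and Cd4, values that describe arrays sharing 3 subsets. The SD within subsets, pooled over them, was 0.71 for Cd8a and 0.77 for Cd8b1, larger than in 97.7% and 98.5% of all genes, and 0.22 for Cd4, where the median gene had 0.29.

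The log2 value of Cd8a minus that of Cd8b1 on the same array shows how unequally the CD8 chains changed. It was 0.43, 2.50 and 3.29 in IEL replicates 1, 2 and 3, -4.04, -4.81 and -3.55 in Naive-like cells, and -1.51, -3.07 and -2.06 in Type-1 cells. The subsets did not overlap in this value: all IEL arrays were above 0, all Type-1 arrays between -3.07 and -1.51, and all Naive-like arrays below those. The means were 2.08 ± 1.48, -4.13 ± 0.63 and -2.21 ± 0.79 (SD, n = 3). An exact permutation test of the F statistic over the 1680 assignments of arrays to subsets gave p = 0.0036, the smallest it can give. IELs exceeded Naive-like cells by 6.21 ± 0.84 and Type-1 cells by 4.29 ± 0.84, and Type-1 exceeded Naive-like cells by 1.92 ± 0.84 (standard error pooled over subsets). Each of these 3 comparisons had a two-sided exact permutation p = 0.1, also after adjustment over the 3, which is the smallest that 3 against 3 arrays allow. The sign of the value on an array depends on the brightness of either probe set and does not show which chain had more RNA.

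**Figure D3:**
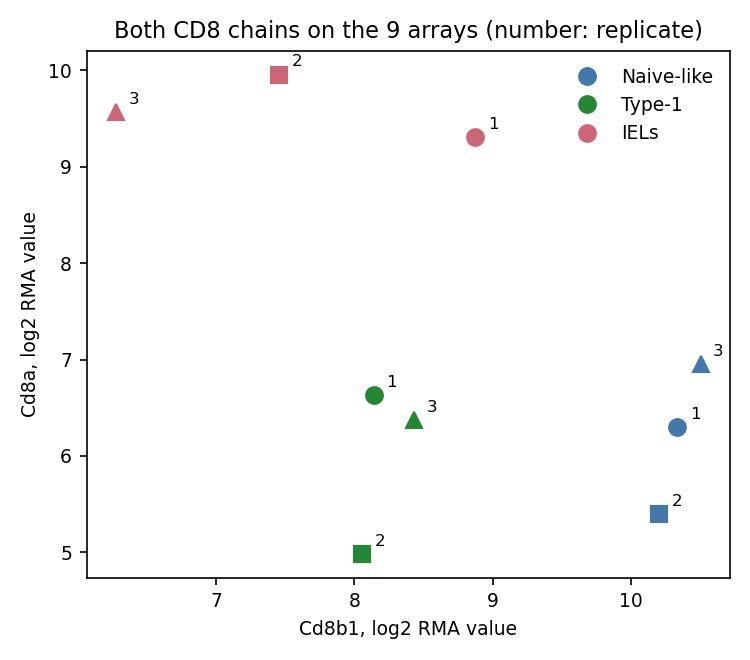
Log2 RMA value of Cd8a (y axis) against Cd8b1 (x axis) on the 9 arrays, coloured by subset and numbered by replicate. The IEL arrays lie at the top with Cd8b1 from 6.27 to 8.88, the Naive-like arrays at the lower right, and the Type-1 arrays at the bottom with Cd8b1 from 8.05 to 8.43, within the range of the IEL arrays.

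The bases upstream of Cd8a are shown because it is the coreceptor gene that rose in IELs and the only one of the 3 found in the RefSeq promoter table used here (GRCm38.p6). Cd8b1 and Cd4 are named only. The window is the 250 bases before the annotated start, chr6:71373177-71373426, plus strand, outside the transcribed region.
Cd8a: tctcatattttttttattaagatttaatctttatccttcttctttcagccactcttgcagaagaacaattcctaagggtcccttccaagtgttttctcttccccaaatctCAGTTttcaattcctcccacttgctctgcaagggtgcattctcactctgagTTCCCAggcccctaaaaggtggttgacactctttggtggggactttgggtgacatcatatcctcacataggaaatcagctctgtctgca
Capitals mark the matches to core motifs of factors whose genes passed in at least 1 comparison with IELs. Searched on both strands, the MYB core AACNG matched once, as its reverse complement 140 to 136 bases before the start, and the Ikaros core TGGGAA matched once, as its reverse complement 89 to 84 bases before it. These do not overlap. The RUNX core TGTGGT and the TCF and LEF core CTTTGA had no match. Of all 32851 windows of this length in the table, 74.2% hold the MYB core, 21.6% the Ikaros core, 14.0% the RUNX core and 13.8% the TCF and LEF core, so the MYB match is common to most genes. A match is a string of letters and not a bound site, and the known Cd8 enhancers lie outside this window.

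Among the factors known to control coreceptor genes, Lef1, Myb and Satb1 fell in IELs against both lymph node subsets, and Tox and Runx3 rose against Type-1 cells. Of 23 such genes 22 had a row, and 5 of these fell and none rose in IELs against Naive-like cells (median -0.22, beside -0.01 over all genes). Of all genes, 1.62% fell and 3.57% rose in that comparison. Lef1, a partner of β-catenin in T-cell development, fell by 3.50 ± 0.25 and Myb, needed for thymocyte differentiation, by 3.30 ± 0.32. Satb1, a chromatin organiser that acts at the coreceptor loci, fell by 2.58 ± 0.29. Bcl11b and Ikzf1, T-lineage and lymphoid factors named after their values were seen, fell by 1.11 ± 0.26 and 1.06 ± 0.22 (limma adjusted p = 0.0235 and 0.0117). In IELs against Type-1 cells 3 fell, Myb and Lef1 by 2.64 and 2.62 and Satb1 by 2.52, and 2 rose, beside 1.41% and 3.73% of all genes. Against Naive-like cells 3 passed without Naive-like replicate 2, and against Type-1 cells 3 passed without any of IEL replicates 2 and 3 and Type-1 replicate 1.

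Tox, which is required for CD4 lineage cells in the thymus, was 7.36, 7.88 and 8.25 in IELs against 5.76, 6.26 and 7.01 in Type-1 cells, a difference of 1.49 ± 0.31 (limma adjusted p = 0.0141). Runx3, which silences Cd4 and activates Cd8 enhancers in CD8 lineage cells, was 7.66, 8.59 and 8.14 in IELs, 7.58, 7.61 and 7.46 in Naive-like cells and 6.68, 7.16 and 7.19 in Type-1 cells. It was higher in IELs than in Type-1 cells by 1.12 ± 0.25 (limma adjusted p = 0.0205), and the difference from Naive-like cells, 0.58 ± 0.25, did not pass (0.303). Zbtb7b, whose product ThPOK holds cells in the CD4 lineage, ranged from 4.08 to 5.42 over the 9 arrays, overlapped between the subsets and did not pass. In Type-1 against Naive-like cells none of the 22 passed, beside 0.284% of all genes. By sign 19 were lower, with a median of -0.35 beside 0.03 over all genes.

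**Figure D4:**
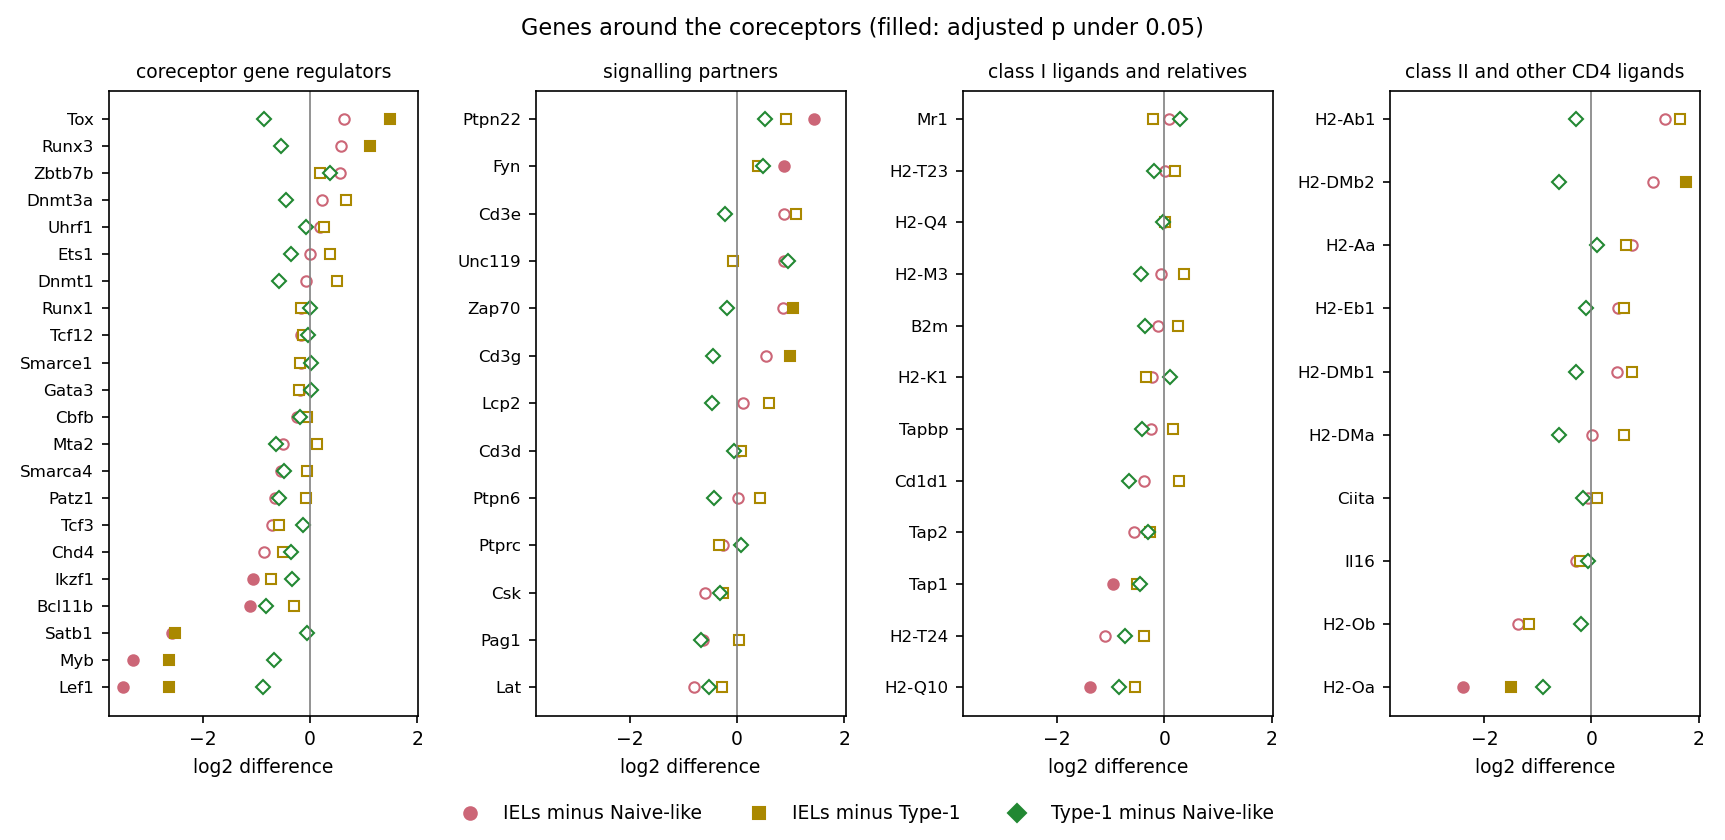
Log2 differences (x axis) of the genes of 4 lists around the coreceptors (y axis) in the 3 comparisons, filled where the adjusted p was under 0.05. Lef1, Myb and Satb1 lie far below 0 in both comparisons with IELs, and no point of Type-1 against Naive-like cells is filled.

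Of the genes whose products act with the coreceptors at the T-cell receptor, 2 passed in each comparison with IELs. Lck, the kinase that CD8α and CD4 carry, had no row of a single symbol and is not analysed here. Of 16 partners 13 had a row, and 2 rose and none fell in IELs against each other subset. Of all genes, 3.57% rose and 1.62% fell against Naive-like cells, and 3.73% rose and 1.41% fell against Type-1 cells. Ptpn22, a phosphatase that dampens receptor signalling, rose against Naive-like cells by 1.43 ± 0.26 (limma adjusted p = 0.0059), and Fyn, a kinase related to Lck, by 0.88 ± 0.21 (0.0299). Against Type-1 cells Zap70, the kinase recruited to the activated receptor, rose by 1.05 ± 0.25 (limma adjusted p = 0.0300) and the CD3 chain gene Cd3g by 0.99 ± 0.23 (0.0269). The median of the 13 was 0.11 and 0.40 in these comparisons, beside -0.01 and -0.03 over all genes. The calls depended on single arrays: against Naive-like cells 1 was left without any of IEL replicates 2 and 3 and Naive-like replicates 1 and 2, and against Type-1 cells 1 was left without Type-1 replicate 1 and 0 without any of IEL replicates 2 and 3 and Type-1 replicate 2. In Type-1 against Naive-like cells none passed, beside 0.284% of all genes, and the median was -0.23, beside 0.03 over all genes.

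A few ligand genes passed in comparisons with IELs, where 5.19% of all genes passed against Naive-like cells and 5.14% against Type-1 cells. None passed in Type-1 against Naive-like cells, beside 0.284% of all genes, a share so small that this says little of the ligand genes. Of 17 class I genes, relatives and loading factors 12 had a row, and the thymus leukaemia antigen gene H2-T3, which shares its row with another symbol, is not analysed here. In IELs against Naive-like cells 2 fell, H2-Q10 at -1.39 ± 0.31 and Tap1, a peptide transporter, at -0.95 ± 0.25 (limma adjusted p = 0.0183 and 0.0477), and none passed in the other comparisons. Both calls were lost when any of IEL replicates 1 and 3 or Naive-like replicates 1 and 2 was left out, and 1 was left without IEL replicate 2, Naive-like replicate 3 or Type-1 replicate 2. H2-Q10 has close paralogues, so its signal may be shared. B2m, the light chain of class I molecules, lay between 12.24 and 12.87 on all 9 arrays and did not pass. Of 11 genes for class II molecules and other CD4 ligands 10 had a row. H2-Oa, which encodes a modulator of peptide loading, was lower in IELs than in Naive-like cells at -2.40 ± 0.39 and than in Type-1 cells at -1.50 ± 0.39 (limma adjusted p = 0.0024 and 0.0446). H2-DMb2, which has a close paralogue, was higher in IELs than in Type-1 cells by 1.76 ± 0.33 (0.0068). In that comparison 1 of these 2 calls was left without any of IEL replicates 1 and 2, Naive-like replicate 1 and Type-1 replicate 3. Against Naive-like cells the list had 2 calls without Naive-like replicate 1 or Type-1 replicate 1 or 2, and 4 without Naive-like replicate 2. Il16, whose product binds CD4, lay between 4.99 and 5.52 on all arrays and did not pass.

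Of the genes next to the coreceptor loci, 1 passed, in both comparisons with IELs. Of all genes, 5.19% passed in IELs against Naive-like cells and 5.14% in IELs against Type-1 cells. With so few neighbours, 1 call or none is near these shares. Cd8a and Cd8b1 are neighbours on chromosome 6, and Cd4 lies elsewhere on it. The 3 measured protein-coding genes nearest on each side of the CD8 pair, Gm1070, Krcc1 and Smyd1 on one side and Rmnd5a, Rnf103 and Chmp3 on the other, had differences between -0.38 and 0.36 in the 3 comparisons, and none passed. Around Cd4 the nearest were Gpr162, P3h3 and Gnb3 on one side and Lag3, Ptms and Mlf2 on the other. Lag3, an inhibitory receptor that is related to CD4 and also binds class II molecules, was 7.39, 7.25 and 7.35 in IELs, 4.83, 4.93 and 4.38 in Naive-like cells and 5.24, 5.64 and 4.76 in Type-1 cells. It rose in IELs against each subset, by 2.61 ± 0.24 and 2.11 ± 0.24 (limma adjusted p = 3.26e-05 and 2.11e-04), while Cd4 beside it stayed low. None of the other 5 passed.

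The genes most like each coreceptor gene were sought by Pearson correlation over the 9 arrays among named genes above the median level. For Cd8a these were Mospd2, Itm2b, Emd, H1f2 and Tnfsf13b (0.976 to 0.982). Tnfsf13b, which encodes the B-cell survival factor BAFF, was higher in IELs by 1.87 ± 0.21 and 1.98 ± 0.21 than in Naive-like and Type-1 cells, and the linker histone gene H1f2 by 1.70 ± 0.21 and 2.00 ± 0.21. For Cd8b1 they were Cfp, Ccdc142, Mss51, Inf2 and Amigo2 (0.917 to 0.955). Amigo2, an adhesion molecule gene, was 7.36, 6.91 and 7.86 in Naive-like cells and at most 5.86 elsewhere, and unlike Cd8b1 it passed in Type-1 against Naive-like cells (-1.93 ± 0.28, limma adjusted p = 0.0090). For Cd4 they were Cad, Atp10d, Axin1, Lrrfip1 and Ip6k1 (0.945 to 0.966). Each of these 5 was lowest on IEL replicate 1, as Cd4 was, and none passed in any comparison. All these genes were picked because their values follow a member on these same arrays. Their differences between subsets were thus in part fixed by that choice and are no separate result. Such correlations describe 9 arrays of 3 subsets and say nothing of shared control.

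Markers of the labelled and of other cell types were read on the same arrays. Of all genes, 5.19% passed in IELs against Naive-like cells, 5.14% in IELs against Type-1 cells and 0.284% in Type-1 against Naive-like cells. Of 6 measured T-cell markers the CD3 genes Cd3d, Cd3e and Cd3g lay between 10.06 and 12.32 on all arrays, but 2 others fell in both comparisons with IELs. Cd2, an adhesion receptor gene, differed by -4.23 ± 0.20 and -4.47 ± 0.20 from Naive-like and Type-1 cells, and Thy1, a surface glycoprotein gene, by -2.58 ± 0.19 and -2.11 ± 0.19. The mean level of the 6 was 9.22 to 9.40 on IEL arrays and 10.04 to 10.57 on lymph node arrays. Its part in the coreceptor results was not tested. The constant genes of the γδ and of the αβ receptor had no row of a single symbol and are not analysed here. The 3 measured γδ markers were low to moderate, Sox13 at 5.15 to 6.14, Trgv5 at 2.82 to 4.95 and Trgv6 at 3.76 to 5.73, and none passed in any comparison. Trbv13-2, an αβ receptor segment looked up after the values were seen, was 5.56, 5.62 and 5.92 in IELs, 7.00, 7.67 and 7.60 in Naive-like cells and 7.07, 6.23 and 6.11 in Type-1 cells. It was lower in IELs than in Naive-like cells at -1.72 ± 0.28 (limma adjusted p = 0.0024), the direction of Cd8b1, and its part in the Cd8b1 result was not tested. Of 10 epithelial markers 7 rose in IELs against Naive-like cells and 6 against Type-1 cells, and their mean level was 5.86 to 6.63 on IEL arrays and 4.26 to 4.50 on lymph node arrays. Among dendritic cells, of which a class carries CD8α, 1 of 8 measured markers passed, Itgax, which rose in both comparisons with IELs by 4.86 ± 0.29 and 3.94 ± 0.29. The mean level of the 8 was 5.67 to 5.72 on IEL arrays and 4.48 to 5.40 on the others, but their median difference from Naive-like cells was -0.07, with 5 of 8 lower by sign, and from Type-1 cells 0.36, with 3 of 8 lower. Xcr1, which defines that class, was 4.18 to 4.72 in IELs and 4.09 to 5.52 in lymph node cells and did not pass. None of 7 macrophage and 6 B-cell markers passed. Of 7 markers of type 3 innate lymphoid cells Kit alone rose in IELs, by 3.87 ± 0.52 and 4.44 ± 0.52 against Naive-like and Type-1 cells. With so few markers, none or 1 passing is near the share of all genes, so these counts do not tell whether such cells were present. The part of the epithelial and dendritic markers in the Cd8a result was not tested.

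**Figure D5:**
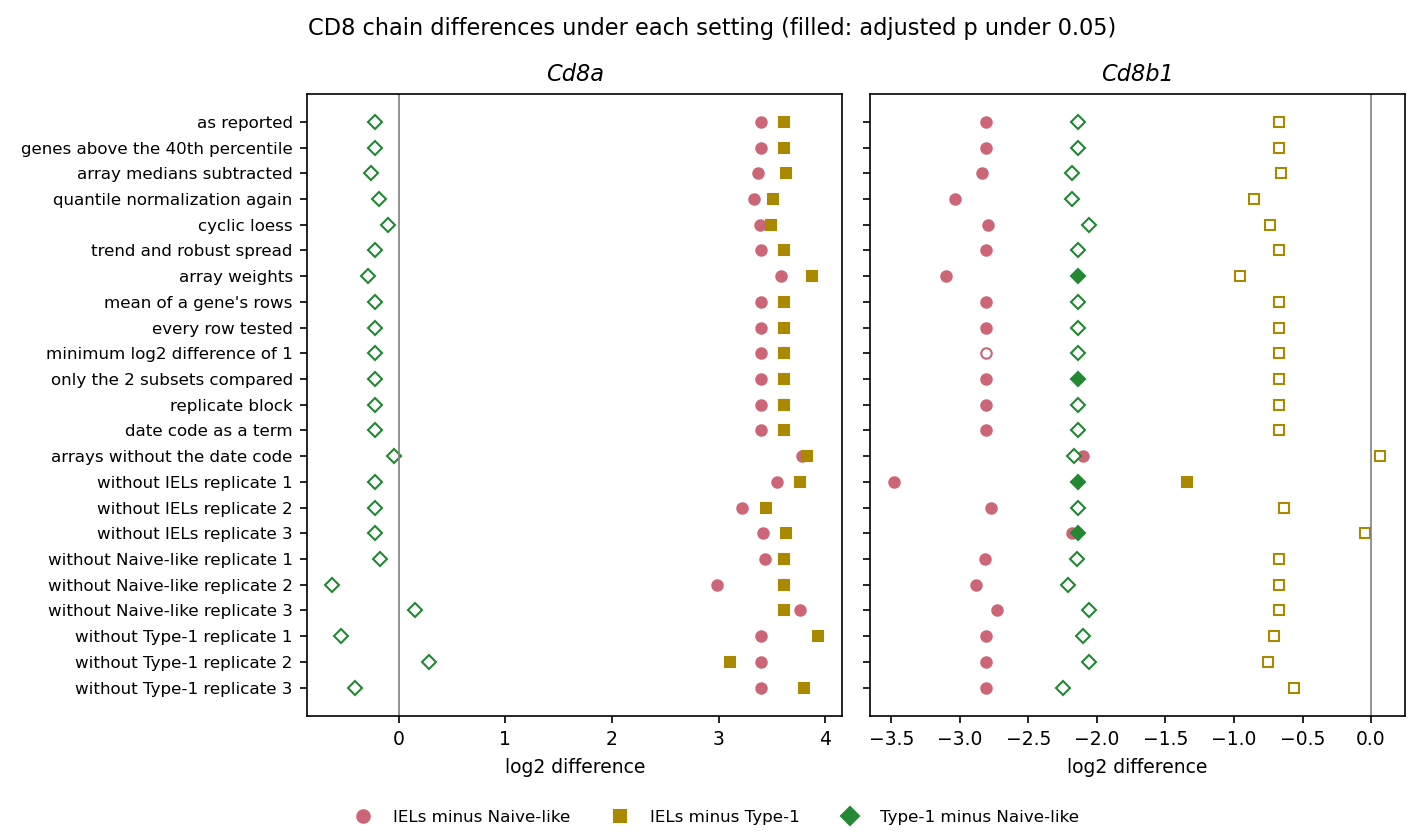
Log2 difference (x axis) of Cd8a and Cd8b1 in the 3 comparisons under each processing setting (y axis), filled where the adjusted p was under 0.05. Cd8a stays between 2.99 and 3.93 in both comparisons with IELs and filled throughout, while Cd8b1 in IELs against Type-1 cells runs from -1.34 to 0.07. Settings that name a date code there refer to the number code of replicate 3 in each subset.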

How the data were processed

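The authors deposited 1 table of log2 values, for which the submitters' processing notes name oligo and RMA, a method that normalizes arrays and summarizes probes per row. The sources used here give no version, build or filter. The table has 41345 rows on 9 arrays. Rows were named through the platform annotation (23521 rows with 1 symbol, 1814 with several, 16010 with none), and each of 22180 genes was taken by its row of highest mean.

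Subsets came from the sample titles. Subset means were compared in limma 3.58.1 under R 4.3.3 (1 mean per subset over all 9 arrays, eBayes without trend, 6 residual and 6.00 prior degrees of freedom), two-sided, and single values by exact permutation with Python 3.11.15. The fit was tested on simulated data. The members and lists were chosen with earlier results of these data known. Named were the coreceptor genes, up to 5 members per list that passed in any comparison (2 where none did), Lck, Zbtb7b, Runx3, Lag3, Il16, H2-T3 and B2m, the 3 nearest genes on each side, the 5 most like genes per member, and leading markers. Trbv13-2, Bcl11b and Ikzf1 stand outside this rule.

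Same-numbered replicates deviated from their subset means with correlations of 0.161, 0.104 and 0.303 between IELs and Type-1 cells. The correlations were 0.087, -0.015 and 0.229 between IELs and Naive-like cells, and 0.014, 0.123 and 0.382 between Naive-like and Type-1 cells. Only the numbers of IELs and Type-1 cells were read as pairs. Between any subsets the highest of these correlations was that of replicate 3, whose arrays share the number code. The part of that code was not tested. The reported fit did not use the pairing, and the replicate number of every subset entered as a block only in an alternative fit. The number of arrays limits the precision.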

Additional observations from a re-analysis of the deposited data

How the results depend on the processing

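Cd8a in IELs kept its direction and call under all 22 alternatives run, at 2.99 to 3.79 against Naive-like and 3.11 to 3.93 against Type-1 cells (limma adjusted p at most 0.0118). Cd8b1 in IELs against Naive-like cells was -3.48 to -2.18 with single arrays left out, and its call was lost only where a minimum log2 difference of 1 was required (-2.81, adjusted p = 0.0913). Cd8b1 in Type-1 against Naive-like cells, not called, passed with array weights (-2.14, adjusted p = 0.0476) and with only those subsets fitted (-2.14, 0.0022), and ran from -2.25 to -2.06 with arrays left out (adjusted p = 0.0082 to 0.5106). In IELs against Type-1 cells it was -1.34 to -0.0428 with arrays left out. It turned sign to 0.0686 within the arrays without the number code. The cause was not tested. Uncalled values near 0 also turned sign: Cd8a in Type-1 against Naive-like cells was 0.15 when Naive-like replicate 3 was left out and 0.29 when Type-1 replicate 2 was (range with arrays left out -0.63 to 0.29), Cd4 in IELs against Naive-like cells 0.0071 without IEL replicate 1 (range -0.35 to 0.0071), and Cd4 in Type-1 against Naive-like cells -0.0019 with cyclic loess. The filter at the 40th percentile left Cd4 out. The unequal change of the CD8 chains, 6.21 for IELs against Naive-like cells, was 5.89 within the arrays without the number code. There, 6 arrays allow no exact permutation p below 0.0667.

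With the replicate block no coreceptor gene changed its call (Cd8a 3.40 and 3.62 against Naive-like and Type-1 cells, adjusted p = 4.97e-04 and 3.70e-04; Cd8b1 -2.81, 0.0045). Counts over all genes were 1152, 63 and 1140 in the order of the report. They became 250, 14 and 204 with a minimum difference of 1, and 534, 20 and 565 without the arrays of that number code. The first was 1920 with array weights, the second 34 without Naive-like replicate 3, and the third 732 and 724 without IEL replicates 2 and 3. Over all alternatives the regulators called, 5 in each comparison with IELs, numbered 3 to 6; signalling partners, 2 in each, 0 to 6 and 0 to 4; class I genes in IELs against Naive-like cells, 2, from 0 to 3; and class II genes and other CD4 ligands, 1 and 2, from 0 to 4 in both. In Type-1 against Naive-like cells no list gene passed under any alternative run.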

Other observations

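Neighbouring genes called in opposite directions were counted after the values of the CD8 pair were seen. In IELs against Naive-like cells 3.57% of all genes rose and 1.62% fell, which by itself keeps such pairs few. Of 18956 pairs of measured protein-coding genes that follow each other in the RefSeq order, both genes passed in IELs against Naive-like cells in 132. In 19 of these 132 pairs one gene rose and the other fell, and Cd8b1 and Cd8a were among the 3 pairs in which each difference was at least 2 on the log2 scale. In IELs against Type-1 cells 24 of 146 such pairs went opposite ways, without the CD8 pair, and in Type-1 against Naive-like cells none of 5. Neighbouring genes are not independent of each other, and no test was made of these counts.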
